A study of Caenorhabditis elegans with 6 samples.

Results

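The flp and nlp genes of the nematode Caenorhabditis elegans encode precursors of small signalling peptides. Members were the rows of the value table with exactly 1 platform gene symbol made of flp or nlp and a number, leaving out nlp-26 to nlp-31 and nlp-34; each gene kept its brightest row. There were 102 members, 31 flp and 71 nlp genes, among 25478 genes with such a row and 26192 rows tested. Each member had 1 row, so the choice of the brightest row changed nothing.

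RNA came from whole N2 (wild-type) hermaphrodites staged as L4 larvae, grown from L1 for 48 hours at 20 °C on Escherichia coli OP50. In the control group (n = 3 arrays) the plates held no perchlorate, and in the perchlorate group (n = 3 arrays) 1 mg/mL sodium perchlorate, an oxidising salt, was present in agar and bacteria. The growth and treatment notes of the controls also name perchlorate, and their titles, descriptions and treatment entries, which call them controls, were followed. The labels do not say that replicates were separate cultures, so a p-value here reflects only the scatter among these samples, which may be technical. Both groups carry the same genotype. In whole animals, fewer cells of a type and less RNA per cell cannot be told apart.

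A neuropeptide is cut from a larger precursor by proprotein convertases, trimmed by a carboxypeptidase and often amidated at its end, then released from dense core vesicles onto G protein-coupled receptors. The flp genes encode FMRFamide-like peptides, which share an arginine-phenylalanine-amide ending. The nlp genes are a mixed class of other neuropeptide-like proteins, most of them made in neurons and some in gut or epidermis. In worms such peptides tune locomotion, egg laying, feeding, sleep and fat use.

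The 6 arrays had like distributions, with medians of 5.81 to 5.89 on the log2 scale. Correlations between arrays were 0.9909 to 0.9928 among controls, 0.9836 to 0.9873 among perchlorate arrays and 0.9793 to 0.9880 across groups. Perchlorate replicate 1 stood apart on the first principal component, scoring 47.7 where the other perchlorate arrays scored 12.2 and 13.1 and the controls -27.2 to -20. Of 23 listed neuron markers 21 were measured, 16 of them above the median of all rows. They included snb-1 (synaptobrevin) and unc-13 (vesicle priming), so RNA of neurons was measurable in these whole-animal samples.

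Perchlorate was set against control to see which neuropeptide genes differ in larvae raised with the salt. No flp or nlp gene passed at a limma adjusted p under 0.05, where 0% of all rows passed higher and 0.00764% lower. The smallest limma adjusted p among members was 0.151. An unadjusted limma p under 0.05 was found for 7 members, 6.86% of 102, beside 16.4% of all rows. Of the 7, 6 were higher with perchlorate (flp-25, flp-27, nlp-39, nlp-46, nlp-59 and nlp-70; 8.46% of all rows were higher by this measure) and 1 was lower (nlp-11; 7.92% of all rows). The members' share was thus below the background in both directions. Differences were small: they ran from -0.55 to 0.72 on the log2 scale, 5 members differed by 0.5 or more, and 0 reached 2-fold, a size reached by 1.2% of all rows.

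**Figure D1:**
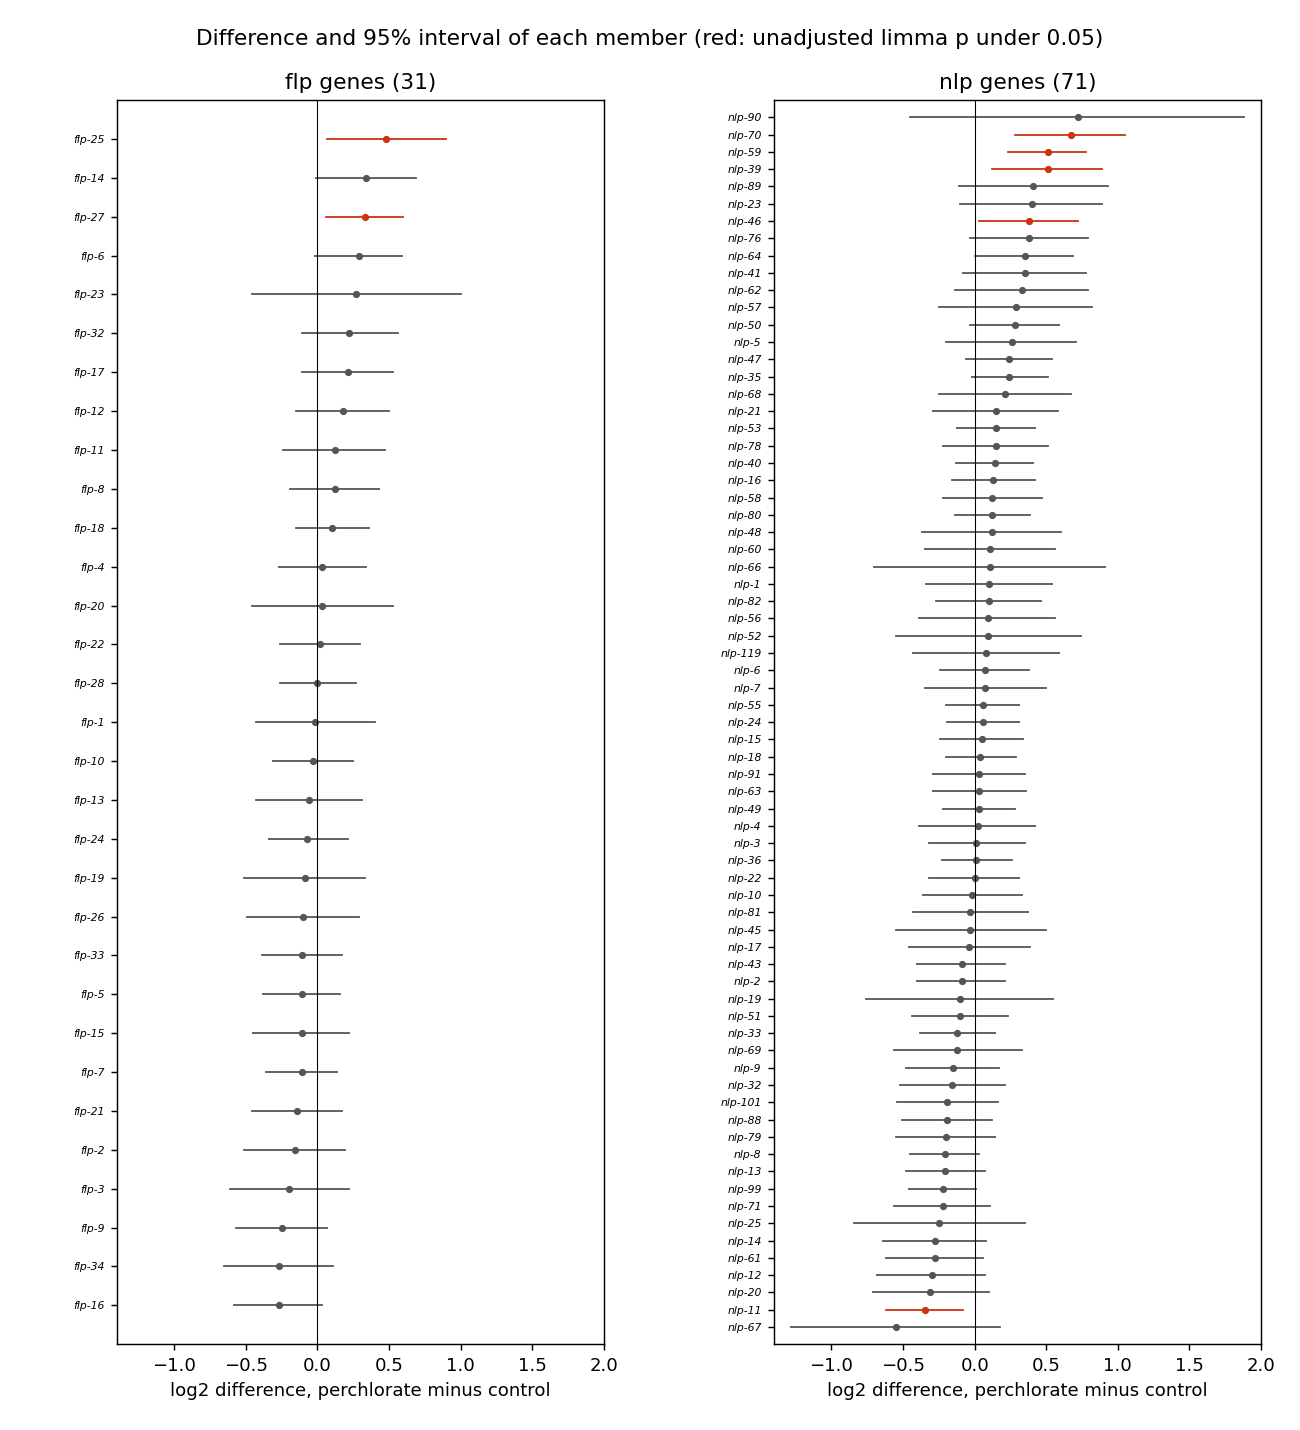
Log2 difference (perchlorate minus control, horizontal axis) with its 95% limma interval for each of the 31 flp genes (left) and 71 nlp genes (right), in order of the difference. Red marks the 7 members at an unadjusted limma p under 0.05, and the widest interval belongs to nlp-90.

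The intervals say how large a difference the arrays leave room for. The 95% interval of the difference lay within 2-fold either way for 98 of the 102 members (96.1%, beside 88.7% of all rows). It reached 2-fold in flp-23, nlp-67, nlp-70 and nlp-90. It lay within 0.5 log2 units either way for 45 members, 16 flp and 29 nlp. A p that misses the threshold does not show that levels were alike, and for 57 members the interval reached beyond that narrower bound.

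Among the nlp genes, nlp-59 had the smallest p. Its log2 values were 7.89, 7.89 and 8.12 in controls and 8.47, 8.51 and 8.44 with perchlorate. All 3 perchlorate values lay above all 3 controls and within a narrow range. The log2 difference was 0.51 (SE 0.115, 95% interval 0.23 to 0.78, 1.42 times the control level), with a limma adjusted p of 0.151. It was also 0.51 without perchlorate replicate 1.

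The gene nlp-70 was next, with log2 values of 5.48, 4.88 and 5.21 in controls and 5.87, 5.81 and 5.90 with perchlorate. The groups did not overlap, and the controls were the more scattered. The log2 difference was 0.67 (SE 0.163), 1.59 times the control level, at a limma adjusted p of 0.152. Its control values lay below the array medians and above the lower quartiles. Whether a fold is compressed at that level was not tested, so that the size is uncertain.

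Values of nlp-39 were 5.33, 5.64 and 5.32 in controls and 5.97, 5.68 and 6.16 with perchlorate. The highest control lay just under the lowest perchlorate value. This gave a log2 difference of 0.51 (SE 0.164) and a limma adjusted p of 0.211, and the mean level of this gene too lay below the median of all rows. For nlp-46 the values were 7.06, 7.48 and 7.16 in controls against 7.65, 7.47 and 7.71, so control replicate 2 and perchlorate replicate 2 overlapped. The difference was 0.38 (SE 0.146, limma adjusted p = 0.269). The fifth higher gene named by rank, nlp-64, stood at 6.67, 6.57 and 6.97 against 7.01, 6.98 and 7.25, a difference of 0.35 (SE 0.147, limma adjusted p = 0.306). Its groups touched without overlapping.

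Lower with perchlorate, nlp-11 led. Its log2 values were 8.94, 9.06 and 8.88 in controls and 8.59, 8.73 and 8.52 with perchlorate, with no overlap. The log2 difference was -0.35 (SE 0.115, 0.785 of the control level, limma adjusted p = 0.216), and -0.34 without perchlorate replicate 1. The gene nlp-99 had some of the tightest values: 10.81, 10.75 and 10.76 in controls and 10.57, 10.53 and 10.54 with perchlorate. Its groups were clearly apart for so small a difference, -0.22 (SE 0.0992, limma adjusted p = 0.321). For nlp-61 the values were 7.44, 7.72 and 7.37 against 7.27, 7.36 and 7.05, a difference of -0.28 (SE 0.144, limma adjusted p = 0.374), with the groups meeting at 7.37 and 7.36; without control replicate 2 it was -0.18.

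Both ends of the range belonged to scattered genes, named here because of their values. The largest negative difference was in nlp-67, with values of 10.02, 9.90 and 9.78 in controls and 8.65, 9.40 and 9.99 with perchlorate. Its difference of -0.55 (SE 0.310, limma adjusted p = 0.42) was -0.20 without perchlorate replicate 1, the lowest array. The largest positive one, in nlp-90, came from values of 4.73, 3.67 and 2.96 in controls and 3.73, 4.75 and 5.02 with perchlorate. The control SD of 0.891 was the widest among the nlp genes, the groups overlapped, and the difference of 0.72 (SE 0.494) had a limma adjusted p of 0.509; it was 1.10 without perchlorate replicate 1 and 0.30 at the lowest on leaving out any 1 array.

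Among the flp genes, flp-27 had the smallest p. Its values were 6.78, 6.93 and 6.99 in controls and 7.18, 7.19 and 7.31 with perchlorate, all of the latter higher. On the log2 scale they were 0.33 higher on average (SE 0.114, limma adjusted p = 0.232). For flp-25 the values were 5.61, 6.09 and 6.12 against 6.38, 6.62 and 6.27. The difference, 0.48 (SE 0.175, limma adjusted p = 0.248), was the largest of the family and rested in part on a low control replicate 1, being 0.32 at the lowest on leaving out 1 array.

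For flp-14 the values were 7.75, 7.39 and 7.86 in controls and 7.95, 8.10 and 7.96 with perchlorate, a difference of 0.34 (SE 0.149, limma adjusted p = 0.316) that was 0.20 without control replicate 2. For flp-6, known from thermosensory neurons, they were 8.90, 9.10 and 9.11 against 9.48, 9.16 and 9.33, a difference of 0.29 (SE 0.130, limma adjusted p = 0.326). In both genes every perchlorate value lay above every control, by a narrow margin. The fifth, flp-32, overlapped: 6.46, 6.61 and 6.56 against 6.97, 6.52 and 6.80 (difference 0.22, SE 0.142, limma adjusted p = 0.48), and the difference was 0.12 without perchlorate replicate 1.

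No flp gene was lower at an unadjusted limma p under 0.05. The closest was flp-16, at 9.53, 9.68 and 9.30 in controls and 9.16, 9.26 and 9.28 with perchlorate, a difference of -0.27 (SE 0.130, limma adjusted p = 0.35), with no overlap. For flp-9 the values were 10.23, 10.13 and 10.44 against 9.91, 10.18 and 9.97 (difference -0.25, or -0.16 without control replicate 3, limma adjusted p = 0.401), and for flp-34, linked to learned aversion, 6.65, 6.41 and 6.64 against a mean of 6.30 ± 0.259 (SD, n = 3; difference -0.27, limma adjusted p = 0.444). Both overlapped, and flp-34 was lowest in perchlorate replicate 1, without which it differed by -0.12. A further gene, flp-3, known for a part in male behaviour, differed by -0.20 through 1 low array, 6.88 in perchlorate replicate 2, with its other perchlorate values of 7.49 and 7.41 inside the control range of 7.37 to 7.52; without replicate 2 the difference was -0.01.

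**Figure D2:**
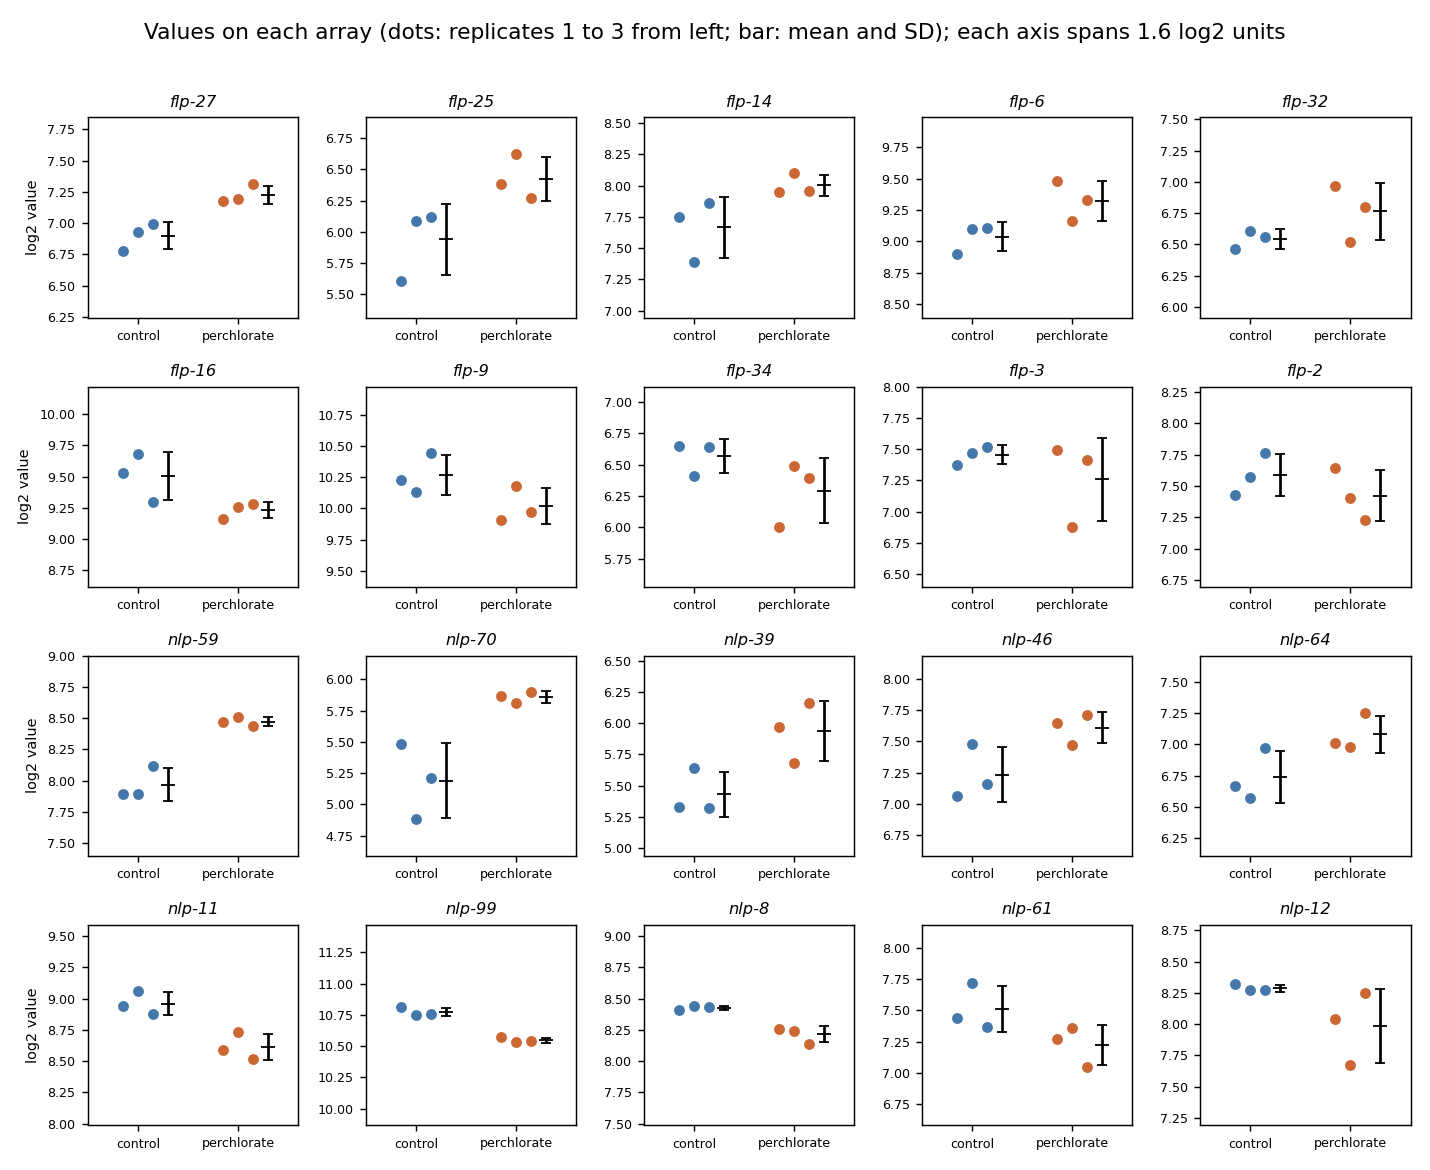
Log2 values on each array (vertical axes, each spanning the same width) for the 5 flp and 5 nlp genes with the smallest p in each direction. Dots are replicates 1 to 3 of control (blue) and perchlorate (orange) and bars are mean and SD (n = 3); nlp-59 separates cleanly, whereas flp-3 and flp-32 overlap.

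Of 6 genes of sleep peptides 5 lay below 0, beside 44.8% of all rows, with 0 at an unadjusted limma p under 0.05. The 5 include nlp-22, at 0.999 of its control level. The FMRFamide-like gene flp-11, which acts in the sleep neuron RIS, was at 8.34, 8.26 and 8.16 in controls and 8.27, 8.19 and 8.65 with perchlorate (difference 0.12, limma adjusted p = 0.739). Of the genes of the neuron ALA, which induces sleep after cellular stress, flp-13 differed by -0.06, flp-24 by -0.07 and nlp-8 by -0.21. Only nlp-8 of these had groups that did not overlap, at 8.41, 8.44 and 8.43 against 8.26, 8.24 and 8.14 (SE 0.102, limma adjusted p = 0.359). For nlp-14 the values were 7.73, 7.84 and 7.89 against 7.81, 7.48 and 7.31 (difference -0.28, limma adjusted p = 0.4). It differed by -0.42 without perchlorate replicate 1, where its unadjusted limma p was under 0.05, and by -0.17 without perchlorate replicate 3. The gene nlp-22, whose peptide acts in the sleep of the larval moult and whose transcript cycles with moulting, was at 3.85, 4.20 and 3.99 against 4.08, 4.08 and 3.89. These values lay near the lower quartile of the arrays (3.96 to 4.09), so a difference in it may not be measurable.

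Genes of egg laying overlapped or nearly so. The pair flp-10 and flp-17, whose peptides inhibit egg laying through the receptor EGL-6, differed by -0.03 and 0.21 (SE 0.119 and 0.135). The values of flp-17 were 6.73, 6.69 and 6.78 in controls and 6.82, 6.82 and 7.18 with perchlorate, all higher, and without replicate 3 the difference was 0.09. Transcripts of nlp-3 and nlp-7, both tied to the egg-laying circuit, differed by 0.01 and 0.07. The receptor gene egl-6 differed by -0.02 (SE 0.143).

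The ligand genes of the receptor NPR-1, which sets foraging and aggregation, were flp-18 and flp-21. For flp-18 the control mean was 9.08 ± 0.0717 (SD, n = 3) against perchlorate values of 9.17, 9.26 and 9.13, and for flp-21 they were 8.06, 8.06 and 8.05 against 8.02, 7.68 and 8.06. The differences were 0.10 and -0.14 (SE 0.107 and 0.133), and in flp-21 1 array, perchlorate replicate 2, was low. The receptor gene npr-1 differed by 0.13 (SE 0.163).

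Perchlorate is an oxidant, and in worms flp-1 and flp-2 have been tied to antioxidant signalling between neurons and gut. Their values, and those of the gut peptide gene nlp-40, overlapped between groups. For flp-1, a locomotion peptide of the neuron AVK, they were 9.98, 10.04 and 10.22 against 9.81, 10.41 and 9.97, with the highest and the lowest of the 6 both under perchlorate. For flp-2, a peptide of arousal, they were 7.43, 7.57 and 7.76 against 7.64, 7.40 and 7.23. For nlp-40, which the intestine releases to time defecation through the receptor AEX-2, they were 10.26, 10.23 and 10.48 against 10.44, 10.45 and 10.50. The differences were -0.02, -0.16 and 0.14, with limma adjusted p of 0.972, 0.639 and 0.592, and aex-2 differed by 0.05.

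Further members with known roles were measured. The fat-regulating flp-7 differed by -0.11 (SE 0.106) and its receptor gene npr-22 by -0.01. The olfactory neuron genes nlp-1 and nlp-9 differed by 0.10 and -0.15. The cholecystokinin-like nlp-12, made in the stretch-sensing neuron DVA, was at 8.32, 8.27 and 8.27 in controls and 8.04, 7.67 and 8.25 with perchlorate. Controls were tight and perchlorate values ran from just below them to well below, a difference of -0.30 (SE 0.160, limma adjusted p = 0.392) that was -0.15 without perchlorate replicate 2. Its receptor genes ckr-1 and ckr-2 differed by -0.10 and -0.16.

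The members that resemble the antimicrobial peptides of the epidermis, nlp-24, nlp-25, nlp-32 and nlp-33, differed by 0.06, -0.25, -0.16 and -0.12. The bright nlp-24 was at 12.44, 12.34 and 12.48 against 12.42, 12.52 and 12.50, and nlp-33 at 12.15, 12.03 and 12.18 against 11.93, 11.97 and 12.10. In nlp-25 perchlorate replicate 1 was low, 10.93 beside 11.89 and 11.83 and controls of 11.77 to 11.83, and without it the difference was 0.06. The dim nlp-32, between 2.91 and 3.47 on the 6 arrays, lay below the lower quartile. Beside these, listed epidermis genes had a median log2 difference of -0.60 over 9 measured, and -0.40 without perchlorate replicate 1. All 9 lay below 0, beside 44.8% of all rows. They were uneven: the collagen genes sqt-3, dpy-13, rol-6 and dpy-7 differed by -1.48, -1.37, -1.04 and -0.43. The regulator genes elt-3, elt-1 and lin-26 differed by -0.09, -0.22 and -0.34. The part of the listed epidermis genes in the values of nlp-25 was not tested.

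Of the brightest rows, nlp-36 was at 11.91, 11.95 and 12.03 in controls and 12.04, 11.98 and 11.91 with perchlorate, and flp-28 at 10.09, 10.19 and 10.30 against 10.27, 10.22 and 10.11. The differences were 0.01 and 0.00, with SE of 0.105 and 0.114, and the values of both groups overlapped throughout. Brightness depends on each probe set and does not rank genes by transcript number.

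The families were close to each other. The median log2 difference was -0.02 over the flp genes and 0.06 over the nlp genes, beside 0.03 over all rows. The middle 50% of differences ran from -0.11 to 0.15 in both families and from -0.14 to 0.20 over all rows. Above 0 lay 15 of 31 flp and 44 of 71 nlp genes, where 55.2% of all rows did. At an unadjusted limma p under 0.05 the flp genes had 2 higher and 0 lower, 6.45% of the family, and the nlp genes 4 higher and 1 lower, 7.04%. The difference between families was not tested, since members share arrays and are not replicates.

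Groups that did not overlap were found for 20 members, 13 higher and 7 lower, 19.6% beside 24% of all rows (12.8% higher and 11.2% lower). Of flp genes 6 were higher and 1 lower, and of nlp genes 7 and 6. Of the 102 members, 88 lay above the median of all rows, 9 between the lower quartile and the median and 5 below the lower quartile. Of rows above the median, 21.7% had an unadjusted limma p under 0.05, where 6.67% of the 30 flp and 5.17% of the 58 nlp genes in that range did.

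The 3 perchlorate arrays did not shift the members in the same direction. The median deviation from the control mean was 0.020, -0.064 and 0.037 for the flp genes in perchlorate replicates 1, 2 and 3, against -0.074 to 0.062 in controls. For the nlp genes it was 0.061, -0.043 and 0.142, against -0.019 to 0.002. So replicate 2 lay below and replicate 3 above the controls in the nlp family. Replicate 3 exceeded replicate 2 in 50 of 71 nlp genes (70.4%) and 17 of 31 flp genes (54.8%), beside 50.5% of all rows. Replicate 3 held the highest of the 6 values in 24 nlp genes (33.8%, beside 18.2% of all rows), and replicate 2 the lowest in 19 (26.8%, beside 15%). Without replicate 2, 14 members had an unadjusted limma p under 0.05, 13.7% beside 17.5% of all rows, against 7 with it.

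**Figure D3:**
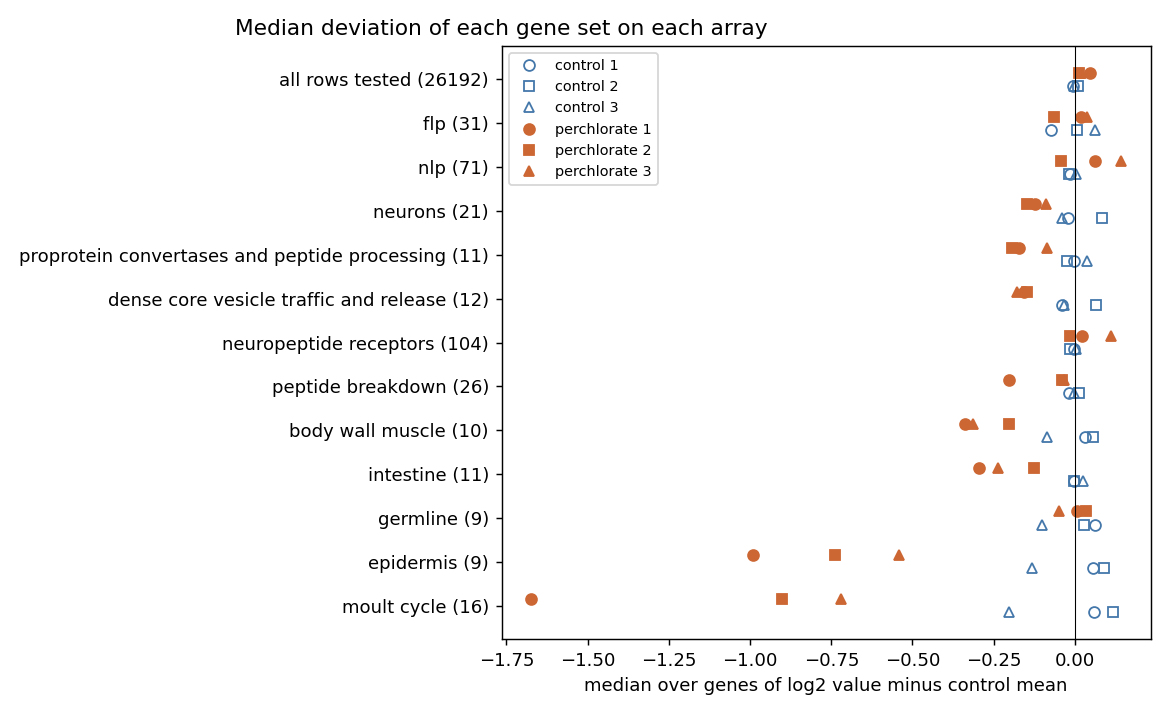
Median over each gene set of the log2 value minus that gene's control mean (horizontal axis) on each array; open blue marks are controls, filled orange marks perchlorate, and shape gives the replicate. The flp and nlp medians stay between -0.074 and 0.142, whereas the moult cycle list lies between -1.674 and -0.720 under perchlorate.

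Marker lists of other tissues were set beside the members on the same arrays. The moult cycle list, genes that rise and fall as each cuticle is made, had a median log2 difference of -1.11 over 16 genes. At an unadjusted limma p under 0.05, 13 were lower and 0 higher, 81.2% of the list beside 16.4% of all rows. Its per-array medians were -1.674, -0.901 and -0.720 with perchlorate, and its median difference was -0.74 without replicate 1. Body wall muscle markers had a median of -0.26 over 10 genes and intestine markers -0.22 over 11. At that p 5 muscle genes (50%) and 4 intestine genes (36.4%) were lower and 0 higher, beside 7.92% of all rows lower. Germline markers had a median of -0.01 over 9, with 0 higher and 0 lower. Neuron markers had a median of -0.10 over 21, with 15 below 0, where 44.8% of all rows were. At that p 1 was higher and 2 lower, 14.3% of the list and near the 16.4% of all rows. Their per-array medians were -0.124, -0.146 and -0.088 with perchlorate against -0.041 to 0.082 in controls. None of these genes passed at a limma adjusted p under 0.05. The part of a shift in stage or tissue in the neuropeptide values was not tested.

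Among 11 listed genes of proprotein convertases and peptide processing the median log2 difference was -0.18, and 10 lay below 0, beside 44.8% of all rows. The list is not limited to neuropeptide precursors and takes in bli-4, a convertase known from cuticle collagens, which differed by -0.21. At an unadjusted limma p under 0.05, 0 were higher and 1 lower, 9.09% of the list, near the 7.92% of all rows that were lower. That gene was egl-3, the main convertase of neuropeptide precursors, at 9.49, 9.41 and 9.40 in controls and 8.87, 9.08 and 8.93 with perchlorate. Its groups were well apart, with a difference of -0.47 (SE 0.111, 0.721 of the control level, limma adjusted p = 0.151). Under a prior that was trended and robust it passed, at a limma adjusted p of 0.0484. Under that prior 328 of 26192 rows passed, beside 2 in the main fit. The convertase gene aex-5 was at 8.52, 8.70 and 8.68 against 8.38, 8.43 and 8.37, a difference of -0.24 (SE 0.108, limma adjusted p = 0.33). Without perchlorate replicate 1 the median of the list was -0.09.

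Of 12 measured genes of dense core vesicle traffic, 10 lay below 0, beside 44.8% of all rows, with a median of -0.16. Of the neuron markers, which share unc-104 and ric-19 with these genes, 15 of 21 lay below 0, with a median of -0.10. At an unadjusted limma p under 0.05, 0 vesicle genes were higher and 1 lower, 8.33% of the vesicle list, again near the 7.92% of all rows. The lower gene, ida-1, which encodes a dense core vesicle membrane protein, was at 8.56, 8.44 and 8.58 against 8.15, 8.10 and 8.32 (difference -0.34, SE 0.115, limma adjusted p = 0.227). The small GTPase gene unc-108 (RAB-2) was at 10.16, 10.09 and 10.13 against 9.96, 9.97 and 9.88, a tight but small difference of -0.19 (SE 0.101, limma adjusted p = 0.385). Both genes had perchlorate values below every control.

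The receptor genes resembled the ligand genes in spread. Of the measured receptor genes 56 lay above 0 and 48 below, with a median log2 difference of 0.02 and a range of -0.44 to 0.63, and 7 were higher and 1 lower at an unadjusted limma p under 0.05, 7.69% of the list. That is below the 16.4% of all rows in either direction. It is nearer the 11.1% found among all rows at or below the median level, where most receptor rows lay. The smallest p values were those of frpr-8, at 4.71, 4.66 and 4.37 against 5.14, 4.93 and 5.56 (difference 0.63, SE 0.188, limma adjusted p = 0.189), and frpr-21, at 4.26, 4.45 and 4.57 against 4.68, 5.19 and 5.02 (difference 0.53, SE 0.162, limma adjusted p = 0.194). Neither overlapped, and both were dim. Of the receptor rows 18 lay above the median of all rows, 68 between the lower quartile and the median and 18 below the lower quartile, which limits what can be said of them.

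Neprilysin-like proteases break peptides down outside cells. Of 26 nep genes 0 were higher and 5 lower at an unadjusted limma p under 0.05, 19.2% beside 7.92% of all rows lower, with a median log2 difference of -0.08. The gene nep-1 was at 8.22, 8.04 and 8.14 in controls and 7.19, 7.41 and 7.57 with perchlorate, a difference of -0.74 (SE 0.134, 0.597 of the control level, limma adjusted p = 0.14). For nep-2 the values were 8.21, 8.28 and 8.25 against 7.67, 7.92 and 7.68 (difference -0.49, SE 0.116, limma adjusted p = 0.152). Every perchlorate value of both lay below every control. Under the trended, robust prior, where 328 of 26192 rows passed, nep-1 was among them, at a limma adjusted p of 0.0387.

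**Figure D4:**
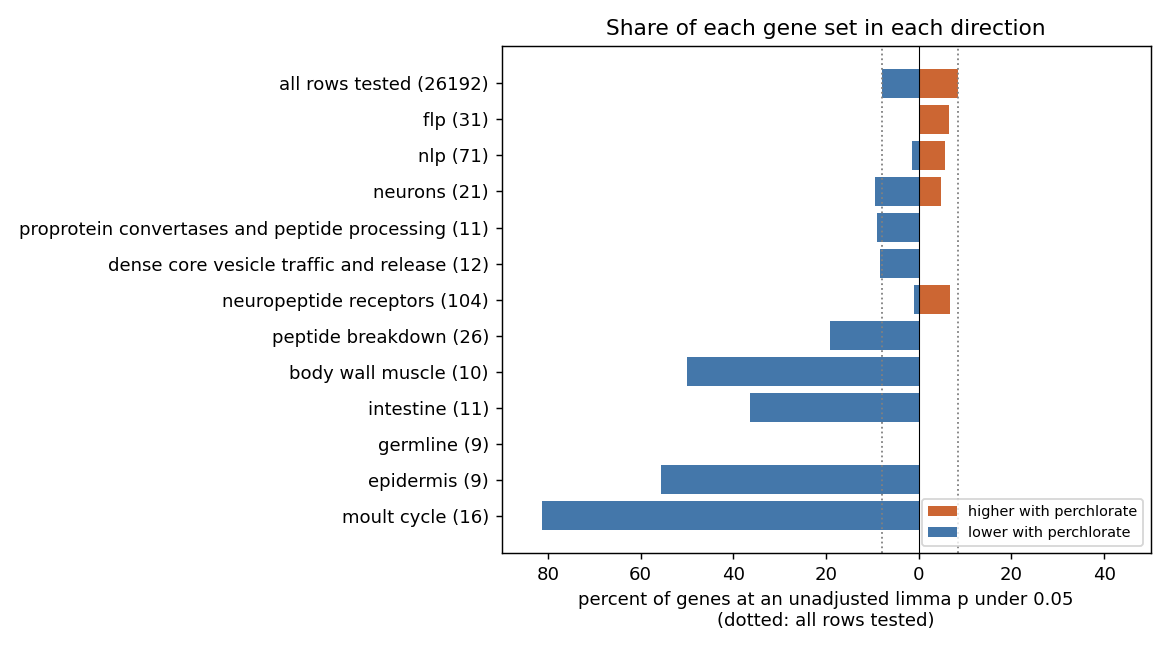
Percent of each gene set at an unadjusted limma p under 0.05 (horizontal axis), higher with perchlorate to the right and lower to the left; numbers of genes stand in brackets and dotted lines mark all rows tested (8.46% and 7.92%). The flp and nlp bars stay inside both dotted lines, and the moult cycle, epidermis, body wall muscle and intestine bars reach far past the lower one.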

How the data were processed

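The authors deposited log2 probe set values; the submitters' processing notes name RMA and Affymetrix Expression Console. Tool versions and the genome build are not given in the sources used here, and coordinates are left out. RMA corrects background, normalises quantiles over the arrays and summarises probes. The deposited values were used as they stand, with no filter. Symbols came from the platform annotation: of 29317 rows, 25546 had 1 gene, 646 several and 3125 none, and the 26192 with a gene were tested. Chromosomes and gene order came from RefSeq assembly WBcel235.

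The comparison of perchlorate with control used limma 3.58.1 (R 4.3.3; lmFit, eBayes without trend, two-sided), with Benjamini-Hochberg adjustment over all tested rows, a threshold of 0.05, 4 residual and 3.12 prior degrees of freedom. Fold changes are differences of log2 values; SDs and SEs are on that scale. The number of arrays limits the precision. On simulated data of 26192 rows the fit recovered 1.49%, 70.1% and 100% of rows changed by 0.5, 1 and 2 log2 units. On the arrays themselves, 313 of 26192 rows differed by at least 2-fold, and 2 rows passed the threshold. In the moult cycle list 10 of 16 genes differed by at least 2-fold, and 0 passed. Whether the recovery rates hold for these arrays was not tested.

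Named were the 5 members with the smallest p in each direction and family, the 3 brightest of each family, members of role groups and the 2 pathway genes with the smallest p in each list; receptors of named ligands were added. Members and lists were chosen with earlier results of these data known. Precursor and peptide sequences were not analysed here. The alternatives were a replicate block, each array left out, renewed quantile normalisation, median centring, filters on brightness (25th percentile, median), all rows, a trended and robust prior, array weights and the mean of a gene's rows.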

Additional observations from a re-analysis of the deposited data

How the results depend on the processing

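Under the 15 alternatives run, 0 flp and 0 nlp genes passed at a limma adjusted p under 0.05; the smallest member value was 0.0562, for nlp-59 among rows above the median. The median log2 difference ran from -0.05 to 0.02 for flp and from 0.01 to 0.08 for nlp genes. At an unadjusted limma p under 0.05, nlp-59 stayed under it in 15 of 15 alternatives and nlp-70 in 14 of the 14 that tested it. Counts of members at that p moved by over 1.5 times in some. With a trended and robust prior there were 4 higher and 2 lower flp and 2 lower nlp genes, with 12.7% of members at that p beside 18.1% of rows. Among rows above the median there were 4 higher flp and 3 lower nlp genes (13.6% of members beside 26.7% of rows), and among rows above the 25th percentile 2 lower nlp genes (9.28% beside 20%). On leaving out each array in turn, the higher flp genes numbered 0 to 3 and the lower ones 0 to 1, the higher nlp genes 3 to 10 and the lower ones 0 to 3. The 10 higher nlp genes came without perchlorate replicate 2. Of the pathway genes, egl-3 and nep-1 passed only with the trended and robust prior, under which 328 of 26192 rows passed beside 2 in the main fit.

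No pairing by replicate number was seen in the values: the correlations of same-numbered deviations were 0.0285, -0.018 and -0.00606. Such correlations cannot tell whether samples were handled in matched sets. With the replicate block, 8 members had an unadjusted limma p under 0.05 beside 7 without it, the medians were -0.02 and 0.06, and 0 passed adjusted. With 3 arrays a group, 2582 of 26192 rows differed by at least 0.5 log2 units, and 2 rows passed in the main fit. Differences of that size were thus rarely called on these arrays.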

Other observations

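Members lay on all 6 chromosomes, 35 of them on X. On X, 0 of 35 members had an unadjusted limma p under 0.05, beside 16.9% of all rows on X, and their median log2 difference was 0.03. Of 67 members on autosomes 7 did, 10.4% beside 16.3% of autosomal rows, 3 of them (nlp-46, nlp-59 and nlp-70) among the 14 on chromosome V. The difference between X and autosomes was not tested. Some members are direct neighbours among protein-coding genes of WBcel235: nlp-45, nlp-22, nlp-23 and nlp-2 on X, nlp-119, nlp-90 and nlp-91 on X, flp-28, flp-3 and flp-2 on X, and nlp-9 and nlp-13 on chromosome V. The differences in the first run were -0.03, 0.00, 0.40 and -0.09, in the second 0.08, 0.72 and 0.03, in the third 0.00, -0.20 and -0.16, and in the last -0.15 and -0.21. The rows of nlp-22, nlp-23, nlp-2 and nlp-119 lay below the lower quartile, and nlp-90 had an SE of 0.494.

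Of 8 genes listed as other neuropeptides, 1 was higher and 0 lower at an unadjusted limma p under 0.05, where 8.46% and 7.92% of all rows were. The list also held rpa-1 (difference 0.05), which is a DNA replication gene and not a neuropeptide gene. The myoinhibitory peptide gene mip-1 was at 8.70, 8.72 and 8.53 in controls and 9.12, 8.88 and 8.96 with perchlorate, all higher (log2 difference 0.34, SE 0.121, limma adjusted p = 0.242). The gene pdf-2, of the pigment-dispersing factor type that promotes arousal, was at 7.93, 8.10 and 8.11 against 7.82, 7.42 and 7.87, all lower (difference -0.34, SE 0.153, limma adjusted p = 0.321). It differed by -0.20 without perchlorate replicate 2, and its receptor gene pdfr-1 differed by -0.11.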
